A study of Mus musculus with 64 samples.

Results

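Germ cells of the fetal and newborn mouse testis, called prospermatogonia, were compared across birth in control animals that carried 1 mutant copy of Morc1. The comparison set 3 RNA-Seq libraries of sorted Morc1tg/+ germ cells taken after birth, at P2.5, against 2 libraries taken just before birth, at E18.5, where the numbers are days from birth and from conception. These 5 libraries were taken by their genotype, stage and tissue labels from 64 samples in the series, of which 47 are RNA-Seq and 20 are sorted germ cells. The Morc1tg allele arose on FVB/N by integration of a tyrosinase transgene that removed several exons of Morc1, and every control mouse carried it in 1 copy. The allele was crossed to an Oct4-IRES-eGfp reporter line, so the background was mixed, and GFP-positive cells were sorted by flow cytometry. The reporter reads the Oct4 (Pou5f1) locus, so the level of Pou5f1 itself is tied to the sorting gate. Each library came from 10 ng of total RNA of 1 mouse after depletion of ribosomal RNA and without selection of poly(A), and the labels do not give the litter of each mouse. Germ cells of Morc1tg/tg mice, in which both copies are mutant, had 2 libraries at each stage and served as a second set of mice for the same interval. The study's text describes the controls as littermates of these mutants, so the genotypes of a stage may share litters.

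Prospermatogonia stop dividing in mid-gestation and stay in G1/G0 arrest until after birth. During the arrest DNMT3A and its cofactor DNMT3L write new DNA methylation across the genome, and piRNAs bound to PIWIL4 (MIWI2) direct part of it to transposons. In the first days after birth the cells resume mitosis, move to the basement membrane of the seminiferous cord and give rise to spermatogonial stem cells, which depend on GDNF from Sertoli cells and on its receptors GFRA1 and RET.

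Reads counted on genes were 4007833 and 3898526 in the E18.5 libraries and 2638278, 5950653 and 6880081 in the P2.5 libraries. The E18.5 libraries were the less alike. Their depth-scaled log2 counts (log2 CPM) correlated at 0.836, against 0.897 to 0.940 among the P2.5 libraries and 0.661 to 0.779 between stages. E18.5 replicate 1 held reads on 16401 genes at an equal depth of 2413679 reads and replicate 2 on 14167, against 13982 to 15400 at P2.5. Morc1 was read at 26.1 and 22.4 RPKM, the authors' read count scaled to exon length and to mapped reads, at E18.5 and at 23.8, 24.3 and 29.9 RPKM at P2.5, with a log2 fold change of -0.09 ± 0.19 (SE, adjusted p = 0.77). In Morc1tg/tg cells, which lack part of the gene, its mean level was 4.71 RPKM at E18.5 and 8.94 RPKM at P2.5.

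Of 14499 genes tested with edgeR's quasi-likelihood test, 1620 (11.2%) were higher at P2.5 and 1937 (13.4%) were lower, so that 24.5% were called at an adjusted p under 0.05. Folds were scaled by trimmed means (TMM), on which the median over all genes tested was -0.04 (log2). By fitted folds, more than 4-fold separated the stages for 383 of the genes called higher and 882 of those called lower. Of the genes called, 39 of those higher had no read at E18.5 and 149 of those lower had none at P2.5. These passed the filter on low counts through 1 stage alone and had to differ. They entered the 4-fold counts by fitted folds, not by bounds. In depth-scaled counts, all genes called higher (1620) had every P2.5 library above both E18.5 libraries, and 1935 of the genes called lower had the reverse order. The calls rest on the same libraries, so this order is no separate support for them. Its share over all genes tested is not given. Without E18.5 replicate 2 there were 1342 genes higher and 1371 lower, and without E18.5 replicate 1 there were 2243 higher and 1746 lower. The smallest counts came without P2.5 replicate 3, with 815 higher and 1100 lower, and without P2.5 replicate 2 they were 913 and 1198. In whole cell populations such as these, fewer cells of a type and less RNA per cell cannot be told apart.

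**Figure D1:**
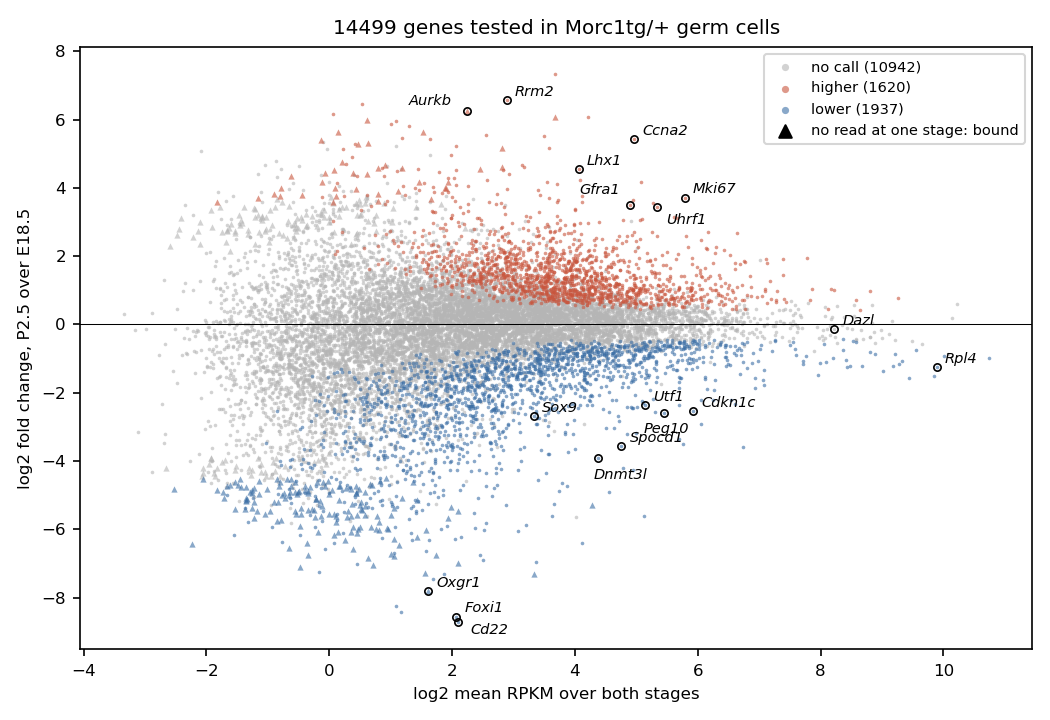
Log2 fold change of P2.5 over E18.5 against the log2 mean RPKM over both stages, 1 point for each of 14499 genes tested in Morc1tg/+ germ cells, with 1620 genes called higher in red and 1937 called lower in blue. Triangles are genes without a read at 1 stage, drawn at the smallest change that a floor of 3 counts allows, and circles mark genes described in the text, such as Rrm2 at 6.57 and Dnmt3l at -3.93.

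Most genes of mitosis rose at P2.5. Of 42 members of the mitosis list (cyclins, spindle and kinetochore proteins), 38 were higher, none was lower and the median log2 fold change was 2.22. Of 52 members of the DNA replication list (helicase, polymerase and nucleotide supply), 34 were higher and none was lower, with a median of 1.70. Mki67, the proliferation antigen, was at 5.77 and 7.76 RPKM at E18.5 and at 88.9, 104 and 117 RPKM at P2.5, so that the stages lay far apart. Its log2 fold change was 3.72 ± 0.22 (SE, adjusted p = 4.4e-06). Cyclin A2 (Ccna2), which acts in S phase and G2, was at 2.19 and 0.394 RPKM at E18.5 and at 52.6, 64.8 and 65.3 RPKM at P2.5.

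In Morc1tg/+ the cyclins of mitosis differed in how far they moved. This contrast was not tested, and its order was reversed in Morc1tg/tg (log2 fold changes of 3.21 for Ccnb1 and 1.69 for Ccnb2). Cyclin B2 (Ccnb2) was at 2.06 and 1.01 RPKM at E18.5 and at 30.0, 29.7 and 37.0 RPKM at P2.5, a log2 fold change of 4.22 ± 0.38 (adjusted p = 6.3e-05). Cyclin B1 (Ccnb1) began higher, at 7.16 and 10.8 RPKM, and reached 25.1, 33.4 and 34.1 RPKM, a log2 fold change of 1.56 ± 0.29 (adjusted p = 0.0034). Neither overlapped between stages. Cdk1, the kinase that B cyclins activate, was at 1.25 and 0.675 RPKM before birth and at 11, 12.7 and 14.9 RPKM after it. Aurkb, the kinase of the chromosomal passenger complex, had no read in either E18.5 library and 499 reads at P2.5, which makes it higher by at least 75.9-fold when the empty group is set to 3 counts in all. Top2a, which untangles sister chromatids, rose from 10.8 and 7.94 RPKM to 79.3, 95.5 and 99.9 RPKM. Mybl2, a transcription factor of G2 genes, was at 2.69 and 0 RPKM at E18.5 and at 29.5, 21.3 and 23.3 RPKM at P2.5, a rise that was called by edgeR and not by DESeq2.

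Among replication genes, the enzymes that make deoxynucleotides were the most different. Rrm2, the regulated subunit of ribonucleotide reductase, was at 0.207 and 0.0593 RPKM at E18.5, from 4 reads in all, and at 13.7, 13.3 and 16.8 RPKM at P2.5, from 827 reads. Its log2 fold change was 6.57 ± 0.59. Thymidylate synthase (Tyms) rose by a log2 fold change of 2.96. Cdc6, which loads the replicative helicase in G1, was at 0.565 and 0.270 RPKM at E18.5 and at 7.52, 6.41 and 6.15 RPKM at P2.5. The helicase subunits were already present before birth, with Mcm2 at 13.8 and 7.22 RPKM and Mcm5 at 7.29 and 8.25 RPKM, and these 2 rose by 2.59 and 2.22 on the log2 scale. The rest of Mcm2 to Mcm7 rose less, by 0.96 to 1.93. The sliding clamp Pcna was at 20.2 and 16.1 RPKM at E18.5 and between 113 and 115 RPKM in all P2.5 libraries. With 1 library left out, the lowest counts were 31 mitosis genes higher, without P2.5 replicate 3, and 29 replication genes higher, without P2.5 replicate 2.

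The replication-dependent histone genes, whose messages lack poly(A) tails and are made in S phase, had 59 members in the files, of which 45 passed the filter on low counts. Members that passed the filter only through the stage at which they were high had to differ, so neither a count of calls nor a median is given for the list. The RPKM values of all 59 summed to between 307 and 422 at E18.5 and between 1303 and 2087 at P2.5, without overlap. Hist1h3c had no read at E18.5 and was at 29.3, 23.2 and 23.6 RPKM at P2.5, a rise of at least 67.1-fold. Hist1h3b was likewise without a read before birth and at 8.26, 11.6 and 22.4 RPKM after it. Histone genes are near-identical copies, and only uniquely mapped reads were counted, so the division of reads among members is uncertain. Slbp, which binds the stem-loop at the end of histone messages, rose from 34.1 and 43.3 RPKM to 91.5, 76.5 and 89.9 RPKM, a log2 fold change of 0.94 ± 0.21.

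Promoters are shown for 5 genes that rose, from the mitosis, replication and histone lists. They are the RefSeq promoters of build GRCm38.p6, from 250 bases before to 50 bases after the transcription start, written 5′ to 3′ on the strand of the gene. Capitals mark exact matches, searched on both strands, to letters of 3 kinds of element. The cell-cycle homology region (CHR) was searched as TTTGAA and also as TTCGAA. The CCAAT box was searched by the letters of its name, and E2F sites were searched as TTCCCGC, next as TTCGCGC and last as TTGGCGC. In the windows a match on the other strand is shown as it reads there, in reverse complement. None of these motifs contains another.
Cdk1, chr10:69352863-69353162 (minus strand): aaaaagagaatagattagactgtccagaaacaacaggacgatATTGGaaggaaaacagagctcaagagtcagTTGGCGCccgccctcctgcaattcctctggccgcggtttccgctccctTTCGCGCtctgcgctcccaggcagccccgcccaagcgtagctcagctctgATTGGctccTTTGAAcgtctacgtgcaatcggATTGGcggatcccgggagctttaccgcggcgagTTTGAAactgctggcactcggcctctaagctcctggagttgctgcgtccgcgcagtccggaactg
Ccnb2, chr9:70421505-70421804 (minus strand): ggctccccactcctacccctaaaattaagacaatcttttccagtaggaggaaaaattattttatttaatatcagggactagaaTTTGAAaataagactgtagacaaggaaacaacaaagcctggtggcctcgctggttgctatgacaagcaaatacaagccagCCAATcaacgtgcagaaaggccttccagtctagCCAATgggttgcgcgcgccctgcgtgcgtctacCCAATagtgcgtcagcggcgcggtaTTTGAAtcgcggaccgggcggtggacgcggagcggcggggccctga
Rrm2, chr12:24708004-24708303 (plus strand): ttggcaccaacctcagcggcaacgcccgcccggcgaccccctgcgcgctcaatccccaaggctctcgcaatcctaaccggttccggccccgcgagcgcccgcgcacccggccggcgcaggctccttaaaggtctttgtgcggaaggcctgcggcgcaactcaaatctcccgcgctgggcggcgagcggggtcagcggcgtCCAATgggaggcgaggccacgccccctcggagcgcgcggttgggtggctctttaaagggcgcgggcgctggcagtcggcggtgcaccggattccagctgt
Cdc6, chr11:98907901-98908200 (plus strand): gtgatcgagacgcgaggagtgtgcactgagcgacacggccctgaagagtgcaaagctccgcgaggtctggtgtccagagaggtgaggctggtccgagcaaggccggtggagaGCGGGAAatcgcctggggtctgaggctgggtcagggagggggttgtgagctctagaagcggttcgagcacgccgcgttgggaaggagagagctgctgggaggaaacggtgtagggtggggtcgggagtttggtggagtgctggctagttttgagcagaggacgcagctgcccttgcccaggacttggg
Hist1h3c, chr13:23745472-23745771 (minus strand): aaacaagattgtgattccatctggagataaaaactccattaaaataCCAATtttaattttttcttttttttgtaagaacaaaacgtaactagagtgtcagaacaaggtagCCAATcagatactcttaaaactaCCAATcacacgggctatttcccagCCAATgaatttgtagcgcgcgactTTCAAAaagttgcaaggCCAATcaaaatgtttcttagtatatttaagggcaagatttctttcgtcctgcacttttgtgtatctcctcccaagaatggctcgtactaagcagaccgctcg
The Cdk1 window held CHR, CCAAT and E2F letters, the Ccnb2 window CHR and CCAAT letters, the Rrm2 window a CCAAT box, the Cdc6 window an E2F match and the Hist1h3c window repeated CCAAT boxes and a CHR match. Over all 32851 promoters of the table, 19.2% held CHR letters, 37.4% a CCAAT box and 8.07% E2F letters. Of the tested mitosis genes, 36 of 42 matched the table with 38 promoters, of which 76.3% held CHR letters, 78.9% a CCAAT box and 21.1% E2F letters. Of the tested replication genes, 41 of 52 matched with 48 promoters, of which 18.8% held CHR letters, 60.4% a CCAAT box and 60.4% E2F letters. The histone genes matched for 41 of 45 with 42 promoters, of which 42.9% held CHR letters, 88.1% a CCAAT box and 33.3% E2F letters. A match is a run of letters and was not tested as a binding site. The genome build of these promoters differs from the mm9 build of the counts, and genes were joined by symbol.

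Regulators of the G1 phase moved in both directions. Of 25 members of this list, 6 were higher and 3 were lower, with a median of 0.09 (log2), or 36% called against 24.5% of all genes tested. The CDK inhibitor Cdkn1c (p57), an imprinted gene, was at 101 and 100.1 RPKM at E18.5 and at 17.8, 20.7 and 21.5 RPKM at P2.5, a log2 fold change of -2.53 ± 0.18 (adjusted p = 1.5e-05). The related inhibitor Cdkn1b (p27) was at 5.45 and 5.98 RPKM at E18.5 and at 2.83, 5.58 and 6.13 RPKM at P2.5, and its stages overlapped (log2 fold change -0.44 ± 0.37, adjusted p = 0.42). Cyclins D1 and D2, which start the cycle, were both higher. Ccnd2 was at 18.46 and 12.4 RPKM at E18.5 and at 69.1, 79.9 and 77.3 RPKM at P2.5 (log2 fold change 2.12 ± 0.17). Ccnd1 was at 10.8 and 7.52 RPKM and then at 30.5, 33.3 and 35.7 RPKM (1.68 ± 0.20). With 1 library left out, the lowest counts were 2 higher, without P2.5 replicate 2, and 1 lower, without P2.5 replicate 3.

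**Figure D2:**
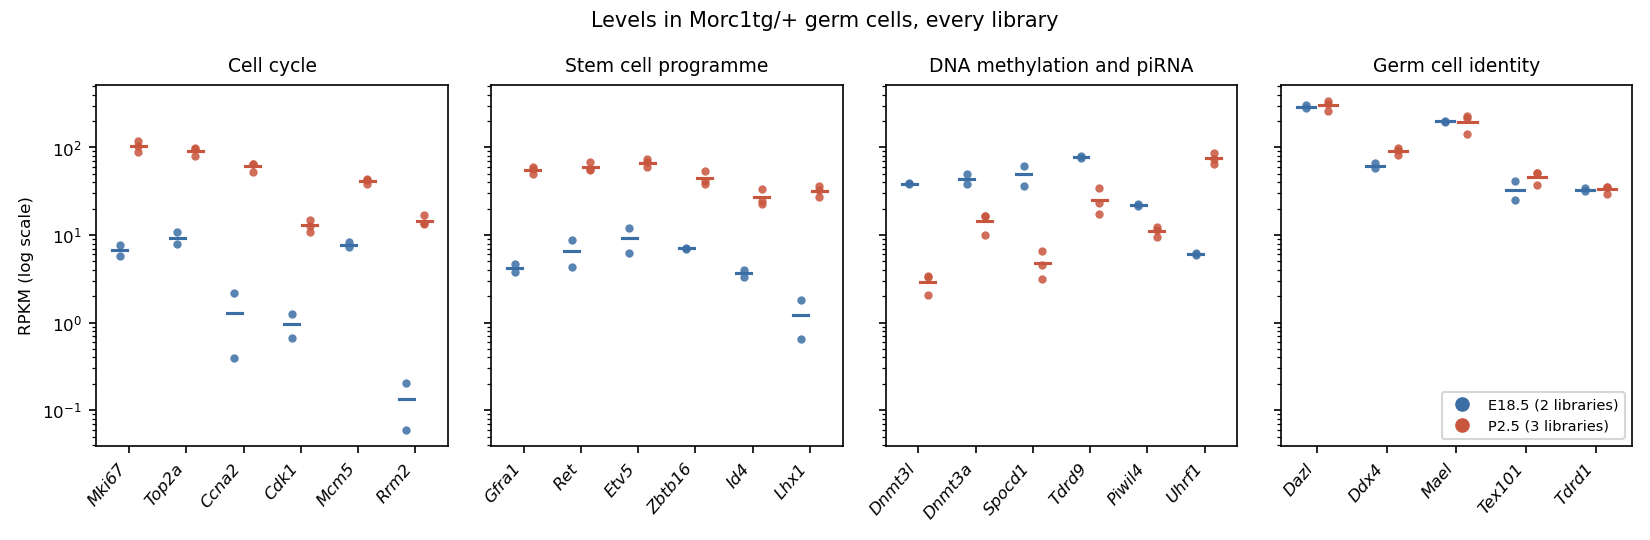
RPKM on a log axis of genes of 4 groups in every Morc1tg/+ library, with 2 points at E18.5 in blue and 3 at P2.5 in red and a bar at each mean. The stages lay apart for all genes of the first 3 panels, as for Mki67 with at most 7.76 RPKM at E18.5 and at least 88.9 RPKM at P2.5, and overlapped for Dazl. The germ cell identity panel holds only members of that list without a call.

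Genes of undifferentiated spermatogonia rose in number more than they fell. Of 33 members in the files 29 were tested, of which 13 were higher and 3 were lower, and the median was 0.79 (log2). The GDNF receptor genes stood among the rises. Gfra1, which binds the ligand, was at 4.71 and 3.80 RPKM at E18.5 and at 56.4, 49.9 and 59.1 RPKM at P2.5, a log2 fold change of 3.51 ± 0.19 (adjusted p = 3.8e-06). Ret, the kinase that GFRA1 recruits, was at 8.73 and 4.32 RPKM before birth and at 69.0, 55.1 and 56.7 RPKM after it (3.06 ± 0.25).

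Several transcription factors were among the rises. Etv5 was at 12.0 and 6.31 RPKM at E18.5 and at 72.9, 60.1 and 67.9 RPKM at P2.5 (log2 fold change 2.72 ± 0.23). Its relative Etv4, from the list of growth factor signalling, was at 7.39 and 1.09 RPKM and then at 64.8, 55.1 and 51.7 RPKM (3.65 ± 0.52). Lhx1 was at 1.83 and 0.642 RPKM and then at 27.0, 36.7 and 32.5 RPKM (4.56 ± 0.36). In none of these did the stages overlap, although the E18.5 libraries differed several-fold from each other for Etv4. Bcl6b, a factor that GDNF induces, rose by 2.34 on the log2 scale, whereas Egr3 (0.78, adjusted p = 0.24) and the brachyury gene T (-0.57, adjusted p = 0.35) did not pass the test. Id4, an inhibitor of helix-loop-helix factors that marks stem cells, was at 3.36 and 3.99 RPKM and then at 33.8, 24.6 and 22.4 RPKM (2.67 ± 0.37). Zbtb16 (PLZF), needed for stem cell maintenance, was at 6.91 and 7.20 RPKM and then at 53.6, 38.1 and 41.9 RPKM (2.46 ± 0.22).

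The 3 members that fell were Utf1, Tspan8 and Ddit4. Utf1, a chromatin factor of pluripotent and early germ cells, was at 60.1 and 54.7 RPKM at E18.5 and at 11.1, 12.1 and 15.1 RPKM at P2.5 (log2 fold change -2.36 ± 0.25). Tspan8 and Ddit4 fell by 2.56 and 2.08 on the log2 scale. Nanos2, which holds male germ cells out of meiosis, was at 0.837 and 0 RPKM and then at 2.63, 1.30 and 2.91 RPKM, and its difference did not pass the test (adjusted p = 0.36). Nanos3 was at 3.10 and 8.00 RPKM at E18.5 and between 6.33 and 19.9 RPKM at P2.5, with overlap (adjusted p = 0.53).

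Of 35 tested genes of growth factor signalling, a list that shares members with the one above, 11 were higher and 2 were lower. Spry4, a feedback inhibitor that receptor kinases induce, was at 2.49 and 1.47 RPKM at E18.5 and at 11.4, 20.3 and 15.5 RPKM at P2.5. Its relative Spry1 also rose (log2 fold change 1.84). Their relative Spry2 fell, from a mean of 8.24 RPKM to 2.12 RPKM (-2.11, adjusted p = 0.019). Among immediate early genes, 3 of 23 were higher and 1 was lower, or 17.4% called against 24.5% of all genes tested. Egr1, which growth factors induce within minutes, was at 49.6 and 35.4 RPKM before birth and at 227, 139 and 155 RPKM after it, and Egr2 rose by 2.26 on the log2 scale. Of the 2 falls in signalling, Insr lost its call without P2.5 replicate 1 (adjusted p = 0.064), 2 (0.15) or 3 (0.11). Spry2 lost its call without P2.5 replicate 1 (0.052) or 2 (0.077). The 1 fall among immediate early genes, Jund, lost its call without P2.5 replicate 2 (0.065) or 3 (0.11). Calls were also lost without E18.5 replicate 1 for Insr and Spry2 (log2 fold changes -0.78 and -1.62) and without E18.5 replicate 2 for Jund (-0.59).

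Surface molecules moved in both directions, with 8 of 28 adhesion and migration genes higher and 6 lower. Cd9 was at 23.4 and 12.5 RPKM at E18.5 and at 77.6, 90.2 and 84.9 RPKM at P2.5. Integrin alpha 6 (Itga6), a laminin receptor used to enrich spermatogonial stem cells, rose from 14.0 and 8.65 RPKM to 29.4, 35.9 and 35.4 RPKM, and the epithelial adhesion molecule Epcam rose by 1.17 on the log2 scale. Among the falls were the cell adhesion molecules L1cam at -3.40, Alcam at -3.16 and Ncam1 at -2.11 (log2 fold changes). Without P2.5 replicate 2, 4 of the 28 genes were higher.

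The machinery of DNA methylation changed in composition. Of 17 members tested, 5 were higher and 6 were lower. Genes that write new methylation in the fetal testis were among those that fell. Dnmt3l was at 38 and 39.3 RPKM at E18.5 and at 3.32, 3.42 and 2.06 RPKM at P2.5, a log2 fold change of -3.93 ± 0.33 (adjusted p = 4.2e-05). Its mean in 2 Morc1tg/+ libraries at E16.5 was 97.4 RPKM. Dnmt3a, the enzyme that DNMT3L stimulates, was at 37.9 and 50.2 RPKM and then at 10.1, 16.6 and 16.4 RPKM (-1.83 ± 0.23). Neither overlapped between stages.

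Maintenance methylation, which copies the mark onto new DNA at replication, went the other way. Uhrf1, which recognises hemimethylated sites, was at 6.19 and 5.95 RPKM at E18.5 and at 65.5, 73.4 and 86.3 RPKM at P2.5 (log2 fold change 3.43 ± 0.19, adjusted p = 3.8e-06). Dnmt1, the maintenance enzyme, was at 37.1 and 29.0 RPKM and then at 82.7, 87.8 and 91.6 RPKM (1.22 ± 0.14). Hells, a chromatin remodeller that assists methylation, rose by 1.44 on the log2 scale. Dnmt3b was at 6.79 and 5.18 RPKM and then at 12.6, 11.7 and 11.5 RPKM, a rise of 0.82 ± 0.25 (adjusted p = 0.037). That call was lost without E18.5 replicate 2 (adjusted p = 0.11) and without P2.5 replicate 1 (0.067), 2 (0.11) or 3 (0.084). Tet2, which oxidises methylcytosine, fell from 6.74 and 6.34 RPKM to 0.728, 0.963 and 1.40 RPKM. Without E18.5 replicate 2, 3 members of the list were higher.

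Of 24 piRNA pathway genes tested, 5 were lower, 2 were higher and the 17 others did not pass the test, so that 29.2% were called against 24.5% of all genes tested. Spocd1, which links nuclear piRNAs to new methylation, was at 61.9 and 36.7 RPKM at E18.5 and at 6.62, 3.14 and 4.58 RPKM at P2.5 (log2 fold change -3.57 ± 0.33). Tdrd9, a helicase of the MIWI2 granules, was at 80.5 and 75.8 RPKM and then at 17.4, 23.1 and 34.3 RPKM (-1.85 ± 0.21). Piwil4 itself was at 21.2 and 22.7 RPKM and then at 9.41, 11.5 and 12.4 RPKM (-1.18 ± 0.23, adjusted p = 0.0039). Their means at E16.5 were 108, 123 and 80.1 RPKM in turn, so each level at P2.5 was the lowest of the 3 stages. Piwil2 (MILI), the PIWI protein that stays in the cytoplasm, was at 87.3 and 48.4 RPKM at E18.5 and at 44.3, 47.4 and 50.9 RPKM at P2.5, where 1 pair of libraries overlapped in RPKM (log2 fold change -0.68, adjusted p = 0.021). Its call was lost without E18.5 replicate 1 (log2 fold change -0.33, adjusted p = 0.18) and without P2.5 replicate 1 (adjusted p = 0.066), 2 (0.07) or 3 (0.087), and without P2.5 replicate 2 the list had 3 genes lower. The genes that rose were Tdrd12, at 4.12 and 3.38 RPKM and then at 20.5, 19.8 and 20.7 RPKM, and Pnldc1, which trims piRNA ends, at 11.6 and 7.44 RPKM and then at 27.2, 24.3 and 35.5 RPKM.

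Of 27 genes of chromatin silencing, 5 were higher and 6 were lower, or 40.7% called against 24.5% of all genes tested. Kdm1b, a histone H3 lysine 4 demethylase, was at 76.3 and 76.2 RPKM at E18.5 and at 28.0, 23.4 and 30.4 RPKM at P2.5 (log2 fold change -1.68). The Polycomb gene Bmi1 and the H3 lysine 9 methyltransferase Ehmt2 fell by 1.34 and 1.26 on the log2 scale. The methyltransferase Suv39h1 and the heterochromatin protein gene Cbx1 rose by 1.44 and 1.42. Without E18.5 replicate 2, 3 genes of the list were higher.

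General germ cell genes were called about as often as all genes. Of 16 germ cell identity genes, 2 were higher and 2 were lower, a share of 25% against 24.5% of all genes tested, with a median of -0.10 (log2). Taf7l (log2 fold change 0.96) and Dnd1 (1.62) were higher, and Elavl2 (-0.98) and Piwil2 (-0.68) were lower. With 1 library left out, the lowest counts were 1 higher, without E18.5 replicate 2, and 0 lower, without E18.5 replicate 1. Dazl, an RNA-binding protein of all germ cells, was at 304 and 279.9 RPKM at E18.5 and at 264, 312 and 339.9 RPKM at P2.5, and the stages overlapped (log2 fold change -0.13 ± 0.13, adjusted p = 0.52). Ddx4, the germ cell RNA helicase, was at 66.1 and 58.1 RPKM and then at 81.5, 92.9 and 99.3 RPKM, and did not pass the test (0.36, adjusted p = 0.10). Pou5f1, to which the sort is tied, was at 5.15 and 5.60 RPKM and then at 17.4, 14.8 and 9.21 RPKM (1.17 ± 0.48, adjusted p = 0.10).

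Of 28 pluripotency genes in the files 21 were tested, of which 6 were lower and 3 were higher. Dppa3 (Stella), a marker of primordial germ cells, was at 10.9 and 14.53 RPKM at E18.5 and at 0.536, 1.07 and 0 RPKM at P2.5, and the fall lost its call without E18.5 replicate 2 (adjusted p = 0.079). Prdm1, the repressor that founds the germ line, fell by 2.38 on the log2 scale. Tcl1, Nr5a2 and Lin28a were higher, with log2 fold changes of 2.85, 2.74 and 1.36.

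Of 15 genes of differentiating spermatogonia, 4 were higher and 3 were lower. The falls were Prdm9 (log2 fold change -2.62), Rarg (-2.22) and Esx1 (-1.80), and Prdm9 was not counted in the meiosis list. Of 25 meiosis genes, 7 were higher and none was lower, with a median of 0.33 (log2), or 28% called against 24.5% of all genes tested. In Morc1tg/tg, 7 meiosis genes were higher and 2 were lower. Kit, the receptor of differentiating spermatogonia, was at 13.8 and 6.60 RPKM at E18.5 and at 8.73, 14.8 and 14.7 RPKM at P2.5, with overlap (log2 fold change 0.17, adjusted p = 0.73, and -0.19 without E18.5 replicate 2). Stra8, which retinoic acid induces before meiosis, was at 7.81 and 0.868 RPKM and then at 17.4, 18.0 and 23.5 RPKM, a rise of 2.07 ± 0.62 (adjusted p = 0.034). Its call was lost without P2.5 replicate 1 (adjusted p = 0.076), 2 (0.087) or 3 (0.12). Sohlh2, a transcription factor of early spermatogonia, was at 2.36 and 0.0550 RPKM and then at 18.8, 16.7 and 24.0 RPKM (3.94 ± 0.75). The meiotic cohesin Smc1b rose from 37.6 and 28.5 RPKM to 88.8, 106 and 105 RPKM, and Mei1 and Tex11 rose by 2.12 and 2.08 on the log2 scale. Without P2.5 replicate 2, 3 meiosis genes were higher, and without P2.5 replicate 1, 2 genes of differentiating spermatogonia were.

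Among 22 genes of retinoic acid signalling, 3 were lower and 1 was higher, or 18.2% called against 24.5% of all genes tested. Crabp2, which carries retinoic acid to its receptors, was at 17.7 and 10.8 RPKM at E18.5 and at 0.240, 0 and 0.902 RPKM at P2.5 (log2 fold change -5.29). The receptor gene Rarg fell by 2.22 and Aldh1a2, which makes retinoic acid, by 1.47 on the log2 scale. Without P2.5 replicate 2, 1 gene of the list was lower, and neither Rarg (adjusted p = 0.079) nor Aldh1a2 (0.089) passed. Aldh1a2 also missed the threshold without E18.5 replicate 2 (0.053) or P2.5 replicate 3 (0.084), and the 1 gene called higher lost its call without P2.5 replicate 1.

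**Figure D3:**
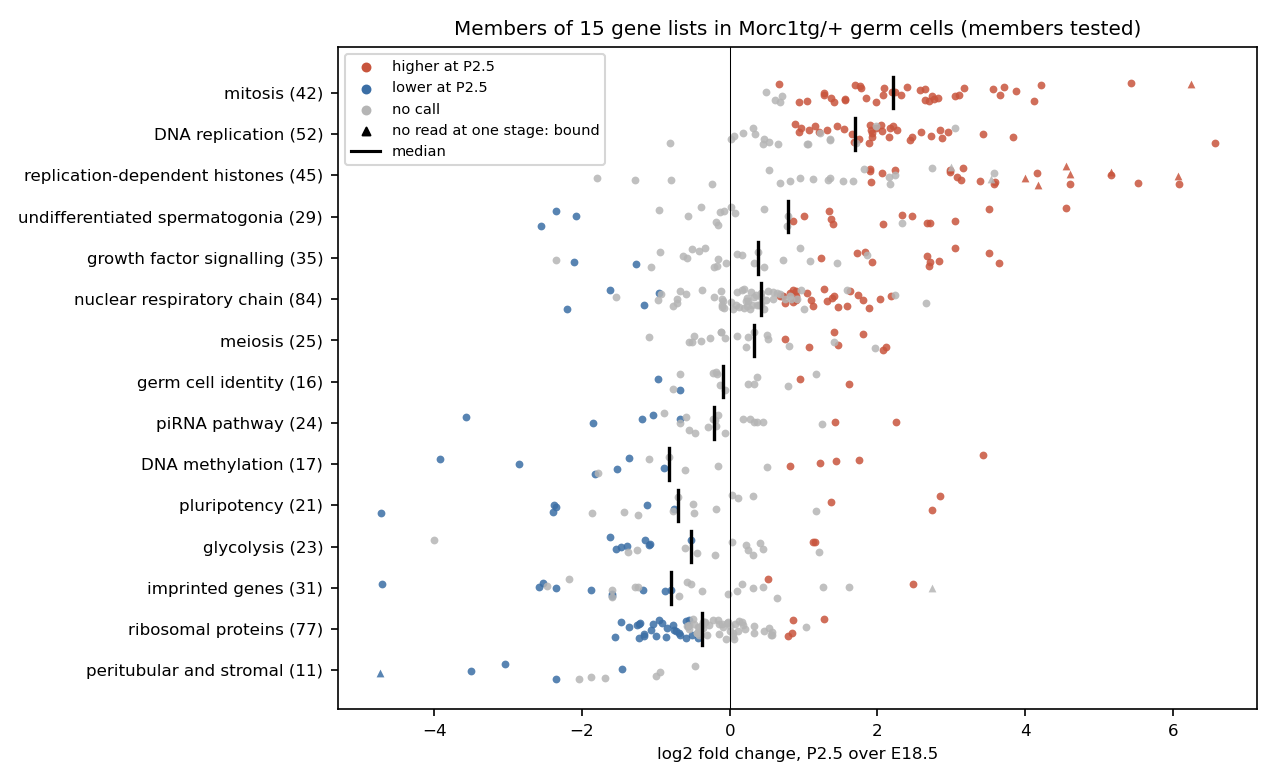
Log2 fold change of P2.5 over E18.5 for the tested members of 15 gene lists in Morc1tg/+ germ cells, with the number tested in brackets, called members in red or blue, members without a call in grey and a bar at each median (none for the histone and stromal lists, some members of which passed the filter through 1 stage). Triangles are members without a read at 1 stage, drawn at their bound, and the mitosis list has its median at 2.22 with 38 of 42 members called higher.

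Of 31 imprinted genes, a class defined by expression from 1 parental copy in body cells, 10 were lower and 2 were higher, with a median of -0.79 (log2). Peg10 on chromosome 6 was at 78.4 and 69.2 RPKM at E18.5 and at 13, 14.6 and 14.46 RPKM at P2.5 (log2 fold change -2.58 ± 0.15, adjusted p = 3.8e-06). Its neighbour Sgce, which shares the same imprinted domain, was at 4.92 and 7.70 RPKM and then at 0.202, 0.312 and 0.295 RPKM. Grb10, an inhibitor of growth factor receptors on chromosome 11, was at 93.1 and 76.7 RPKM and then at 14.0, 21.4 and 21.1 RPKM (-2.35). H19 on chromosome 7 went the other way, from 6.00 and 4.83 RPKM to 46.0, 27.4 and 29.0 RPKM (2.48 ± 0.32). The adjacent growth factor gene Igf2 was at 52.6 and 49.8 RPKM and then at 75.5, 83.2 and 92.0 RPKM, a rise of 0.51 (adjusted p = 0.026) that lost its call without E18.5 replicate 1 (adjusted p = 0.074) and without P2.5 replicate 2 (0.099) or 3 (0.12). The reads were not separated by parental allele, so expression from 1 copy was not tested in these germ cells.

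Metabolic genes differed by pathway. Of 23 glycolysis genes, 8 were lower and 2 were higher, with a median of -0.52 (log2). Lactate dehydrogenase A (Ldha) was at 53.2 and 51.0 RPKM at E18.5 and at 22.1, 20.8 and 18.6 RPKM at P2.5 (-1.54). Pyruvate kinase (Pkm2) was at 400 and 308 RPKM and then at 187, 175 and 205 RPKM (-1.09). Without P2.5 replicate 2, 5 glycolysis genes were lower. Of 84 nuclear genes matched to the respiratory chain by name, 25 were higher and 4 were lower, with a median of 0.43. Without P2.5 replicate 3, 10 of them were higher. Sdhd, a membrane anchor of complex II, was at 4.22 and 6.16 RPKM at E18.5 and at 18.0, 38.9 and 24.6 RPKM at P2.5, while Cox7a1, the muscle form of a complex IV subunit, fell from 116 and 96.8 RPKM to 19.14, 24.3 and 35.1 RPKM.

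Ribosomal protein genes, which are among the most abundant messages, were lower in 27 of 77 and higher in 4, with a median of -0.38 (log2). Rpl4 was at 1439 and 1127 RPKM at E18.5 and at 607, 567 and 658 RPKM at P2.5 (log2 fold change -1.25), and Rps28 was at 975 and 1032 RPKM and then at 504, 301 and 368 RPKM. Without P2.5 replicate 3, 15 of the 77 were lower and 2 were higher. Ribosomal protein genes have many processed copies, and reads that mapped to more than 1 place were not counted, so their levels are uncertain.

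Set beside the 24.5% called over all genes tested, 90.5% of the mitosis list and 65.4% of the replication list were called. The share was 64.7% for DNA methylation, 55.2% for undifferentiated spermatogonia, 50% for adhesion, 46.7% for differentiating spermatogonia and 42.9% for pluripotency. It was 43.5% for glycolysis, 40.3% for ribosomal proteins, 38.7% for imprinted genes, 37.1% for growth factor signalling and 34.5% for the respiratory chain.

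The largest falls were taken among genes with a mean of at least 5 RPKM at E18.5 and no overlap between stages, and 4 of them are given here. Oxgr1, a receptor for oxoglutarate, was at 5.08 and 7.09 RPKM at E18.5 and had no read at P2.5, which makes it at least 226-fold lower. Cd22, a receptor of B cells, had 502 reads at E18.5 and 2 at P2.5, a ratio of 515 with an exact 95% interval from 142 to 4261 that covers counting error only. Foxi1, a transcription factor, had 275 reads at E18.5 and 1 at P2.5 (ratio 564, exact 95% interval from 100 to 22352). The adult beta globin gene Hbb-b1, of the blood list, was at 13 and 27.4 RPKM at E18.5 and had no read at P2.5.

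Markers of other testis cells were read in every library. The summed level of the 10 blood genes was 25.1 and 32.3 RPKM at E18.5 and between 0.246 and 1.89 RPKM at P2.5. The sum of the 15 peritubular and stromal genes, led by the hedgehog receptor Ptch1, was between 73.4 and 74.2 RPKM at E18.5 and between 27.1 and 36.4 RPKM at P2.5. Endothelial genes had 1 of 7 tested lower, Pecam1, or 14.3% against 24.5% of all genes tested called, with sums from 44.7 to 47.6 RPKM and then from 27.2 to 31.2 RPKM. Pecam1, the largest member of that sum at E18.5, had means of 19.3 RPKM at E18.5 and 5.93 RPKM at P2.5. The 6 other tested members did not pass the test. None of 4 tested macrophage genes was called, and the sums of that list were from 8.78 to 11.4 RPKM and then from 23.8 to 43.2 RPKM.

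The Sertoli list had 15.4% of its 13 tested genes called, against 24.5% of all genes tested. Of these, Amh was higher (0.544 and 0 RPKM at E18.5, and 4.69, 8.16 and 6.89 RPKM at P2.5) and Sox9 was lower (17.8 and 16.3 RPKM, and then 3.66, 2.64 and 2.88 RPKM). The call of Amh was lost without P2.5 replicate 2 (adjusted p = 0.087) or 3 (0.066). The Sertoli sum, most of it from Dmrt1, which germ cells also express, was from 85.3 to 160 RPKM at E18.5 and from 164 to 184 RPKM at P2.5. The sum of the Leydig genes was from 11.4 to 13.2 RPKM at E18.5 and from 25.2 to 31.7 RPKM at P2.5. Most of the P2.5 sum came from Scarb1, with means of 5.99 RPKM at E18.5 and 23.6 RPKM at P2.5. Lhcgr went the other way, with a mean of 2.14 RPKM at E18.5 and no read at P2.5. Insl3 of Leydig cells, C1qa and Lyz2 of macrophages, and Hba-a1 of red cells were at 0 in all 5 libraries. Only uniquely mapped reads were counted, so a 0 does not show that a cell type was absent, and Hbb-b1 was read at E18.5. The part of these cells in the lower levels of Hbb-b1, Sox9 and the stromal sum was not tested.

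The same interval in Morc1tg/tg germ cells, from other mice, gave 774 genes higher (5.7%) and 1051 lower (7.74%) among 13586 tested, or 13.4% called. Of the 3557 genes called in Morc1tg/+, 3438 were tested in Morc1tg/tg, and 3338 of those (97.1%) had the same direction. Among the 3438 genes, 1434 were also called in the same direction and 0 were called in the opposite one. The share with the same direction over all genes tested in both genotypes is not given, so 97.1% has no background beside it. The 3438 genes include some without a read at a stage in Morc1tg/+, which had to differ there. By list, 27 of 42 mitosis genes and 27 of 51 replication genes were higher in Morc1tg/tg and none was lower. Among ribosomal protein genes, 36 of 77 were lower and 3 were higher.

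Whether the change differed between genotypes was tested as an interaction over 15784 genes in the 9 libraries of both. No gene passed in edgeR, while 920 had an unadjusted p under 0.05, and DESeq2 called 17. Kit had different values in the genotypes, with a log2 fold change of 0.17 in Morc1tg/+ and -1.56 in Morc1tg/tg (adjusted p = 0.0079), but the difference itself did not pass over all genes (adjusted p = 0.53). Ccnb2 rose by 4.22 in Morc1tg/+ and had a log2 fold change of 1.69 in Morc1tg/tg (adjusted p = 0.086), and here too the interaction had an adjusted p of 0.58. Ccnb1 had the larger value in the other genotype, with 1.56 in Morc1tg/+ and 3.21 in Morc1tg/tg. Ret had 3.06 in Morc1tg/+ and 3.37 in Morc1tg/tg.

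**Figure D4:**
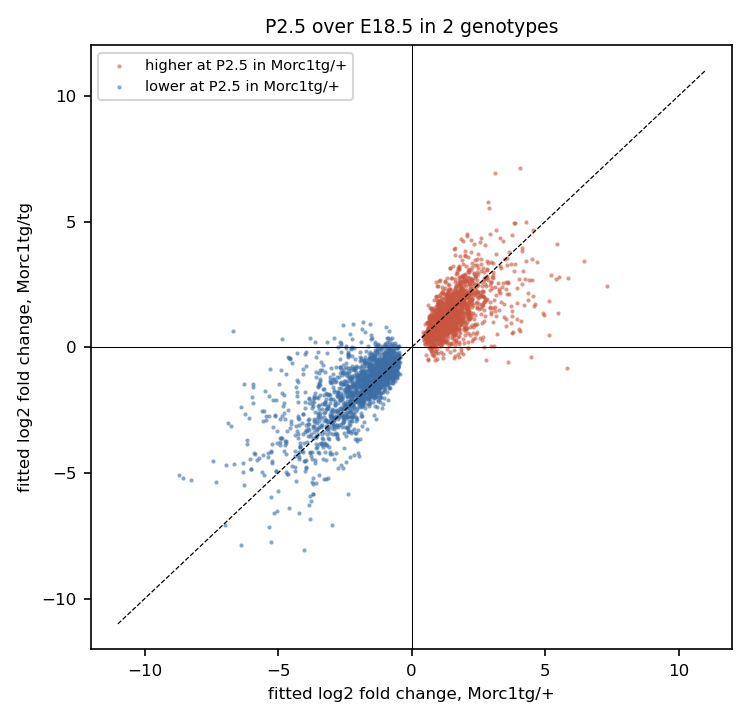
Fitted log2 fold change of P2.5 over E18.5 in Morc1tg/tg germ cells against that in Morc1tg/+ germ cells, 1 point for each of 3323 genes called in Morc1tg/+, tested in both genotypes and with a read at each stage of both, with the dashed line at equality. Points lie mostly in the lower left and upper right of the plot, the vertical position being measured in 4 libraries of other mice.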

How the data were processed

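Gene tables of sorted Morc1tg/+ germ cells at E18.5 (2 libraries) and P2.5 (3 libraries) were analysed, with Morc1tg/tg libraries of the same stages. The authors deposited raw counts of reads per gene by HTSeq, without normalization, and RPKM values, scaled to exon length and mapped reads. Per the labels and methods, reads were trimmed to 50 bases, ribosomal RNA matches were discarded (up to 3 mismatches), and reads mapping to 1 place in mm9 with up to 2 mismatches were kept. Bowtie and SAMtools are also named, without versions.

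In R 4.3.3, counts entered the edgeR 4.0.16 quasi-likelihood test after TMM normalization and filterByExpr, adjusted by Benjamini-Hochberg over every gene in the fit, at a threshold of 0.05 and standard errors (SE) from the same fit. Only the groups compared entered each fit. The deposited tables list 26385 genes, and 14499 were tested in Morc1tg/+. Levels are the deposited RPKM values. They are scaled to all mapped reads, so their log2 ratios ran 0.18 above the TMM folds at the median. Reads on genes ranged from 2638278 to 6880081 in the Morc1tg/+ libraries and from 2413679 to 6461088 in the Morc1tg/tg libraries. Counts of library pairs within a group differed beyond sampling noise (chi-square per gene 9.94 to 17.7), so none was a copy. Each library is 1 mouse, and p-values measure the spread between single mice.

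Folds against a group without reads are bounds, with the empty group set to a floor of 3 counts in all. Ratios resting on 1 to 3 counts have exact 95% intervals for counting error.

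The comparison and the gene lists were chosen with earlier results of these data known. Named genes were up to 10 rises and 10 falls (largest log2 fold changes, no overlap of libraries, mean RPKM of at least 5 in the higher stage), up to 4 called members of each list in each direction, and a fixed set of regulators and markers. Others were chosen after their values were seen: Top2a, Cdk1, Mcm2, Mcm5, Pcna, Slbp, Bcl6b, Egr3, T, Mael, Tdrd1, Tex101, Ncam1, Epcam, Smc1b, Dmrt1, Pkm2 and the developmental regulators of the closing observations. No mitochondrially encoded gene is listed in the files.

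Promoter motifs were searched as exact letters in RefSeq sequences. On simulated counts of the same libraries and 14499 genes, the fit recovered 19% of genes changed 2-fold and 56% of genes changed 4-fold, and called 9 unchanged genes. Alternatives were DESeq2 1.42.0, its size factors in edgeR, library totals alone, no filter on low counts, the replicate number as a block, a fit over all 20 sorted libraries, and leaving out each library.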

Additional observations from a re-analysis of the deposited data

How the results depend on the processing

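In Morc1tg/+ germ cells, 1620 genes were higher and 1937 lower at P2.5 in the fit reported. DESeq2 gave 1822 and 2234, DESeq2 size factors in edgeR 1608 and 1985, library totals alone 1793 and 1768 (50.4% of calls higher, against 45.5%), and no filter on low counts 1975 and 2300. The fit over all 20 sorted libraries gave 2956 and 3566. Leaving out 1 library gave 815 to 2243 higher and 1100 to 1746 lower, with 56.2% of calls higher without E18.5 replicate 1. With the replicate number as a block, which the labels do not say pairs mice and under which same-numbered libraries did not deviate together (correlations of 0.0113 and -0.0053 in Morc1tg/+ and -0.02 in Morc1tg/tg), 1164 were higher and 1179 lower, 2231 of the 3557 calls were shared, and Morc1tg/tg had 2125 calls and the interaction 10. In Morc1tg/tg the 1825 calls became 4169 with DESeq2, 2862 without a filter and 5661 over all 20 libraries, and ranged from 788 to 2652 with 1 library left out. The interaction had 0 calls as reported, 0 with either other scaling in edgeR, 17 with DESeq2, 19 without a filter, 201 over all 20 libraries and 0 to 75 with 1 library left out, 75 being without E18.5 Morc1tg/+ replicate 1. Of 171 called genes covered by the naming rule or named after their values were seen, none changed direction in the fits that gave it a value (Lum had none without E18.5 replicate 2, nor Hist1h4j without P2.5 replicate 2 or 3), and the number that kept their call was 170 with DESeq2, 171 without a filter, 169 with library totals, 132 with the block and 129 to 156 with 1 library left out. Kit, which was not called, changed sign without E18.5 replicate 2 (-0.19, log2, against 0.65 without E18.5 replicate 1). The causes were not tested. Of simulated 2-fold changes, 19% were recovered at this number of libraries, their spread and depth, with only 200 of 14499 genes changed.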

Other observations

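Genes read at 1 stage and not at the other were picked by a rule on their reads. They had to differ, so their folds and calls are no separate result. With at least 20 reads in every library of 1 stage and 0 in every library of the other, 65 genes were read at E18.5 alone and 18 at P2.5 alone. The set of E18.5 held transcription factors known from other organs, none of which belongs to a list of the report. Nkx2-1, of lung and thyroid, was at 2.34 and 1.28 RPKM at E18.5, and Fezf2, of the forebrain, at 1.96 and 2.31 RPKM. Foxf2 was at 2.10 and 3.07 RPKM, Tfap2b at 0.671 and 1.01 RPKM, and the Hox regulator Cdx4 at 2.61 and 2.44 RPKM. None of these had a read at P2.5, so that each was at least 48.5-fold lower, and each lost its call without 1 of the E18.5 libraries (replicate 1 for Nkx2-1, replicate 2 for the others). In libraries that did not enter the choice, the 65 genes had a read for 64 and 65 at E16.5 in Morc1tg/+, for 59 and 58 at E18.5 in Morc1tg/tg, and for 17 and 30 at P2.5 in Morc1tg/tg. At P10.5, where the cells were sorted in another way, 25 to 35 of them had a read in Morc1tg/+. Of all 26385 genes in the files, 19654 and 19110 had a read at E16.5 in Morc1tg/+. In Morc1tg/tg 15749 and 15248 had a read at E18.5, and 13508 and 15709 at P2.5. The E16.5 libraries were deeper, with 10747524 and 14918478 reads on genes, and the shares were not set to equal depth. The 18 genes of P2.5, Aurkb, Cenpw and Hist1h3c among them, had a read for 18 and 17 at E16.5 in Morc1tg/+, 9 and 5 at E18.5 in Morc1tg/tg, and 15 and 17 at P2.5 in Morc1tg/tg.

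Calls were also counted by chromosome, without a test of the difference. Of 525 X-linked genes tested, 98 (18.7%) were lower and 35 (6.67%) were higher at P2.5, with a median log2 fold change of -0.43, whereas on single autosomes 10.3% to 16.2% of genes were lower and 8.14% to 14.9% higher. Of 25 genes of apoptosis and the p53 pathway, 5 were higher and 3 were lower, or 32% called against 24.5% of all genes tested. The rises included Bid, which carries death signals to mitochondria (2.05, log2), the BH3-only gene Pmaip1 (1.57) and Trp53 itself (1.30), and without P2.5 replicate 2 the list had 3 genes higher and without P2.5 replicate 3 none lower.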
